A study of Mus musculus with 2 samples.

Results

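Myc and the 2 Mb of chromosome 15 downstream of it were examined in single-cell ATAC-seq of mouse hematopoietic stem cells (HSCs), an assay in which a transposase cuts open chromatin and each sequenced fragment marks a pair of cuts in 1 cell. One library held young HSCs, from C57BL/6 mice aged 10 weeks, and the other held aged HSCs, from C57BL/6 mice aged 20 months. Both were sorted by the same surface markers, as cells positive for Sca-1, c-kit and CD150 and without CD34, CD48, Flt3, IL-7 (as labelled) and lineage (Lin) markers. No genotype other than the strain and no treatment is labelled. With 1 library per age, the spread between animals is unknown and no test was made between ages, and every interval given is a 95% interval that covers counting error only. The number of mice pooled in each library is not given in the sources used here.

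The locus was taken from 1 kb before the Myc transcription start site (TSS) to 2 Mb beyond the 3' end of the gene (mm10, chr15:61984391-63990374). Members were the Myc promoter, 1 gene of 21938 protein-coding genes, and the 104 peaks of the locus, out of 166179 peaks called in both libraries combined. The blood enhancer cluster was taken as the stretch from 1.6 to 1.8 Mb downstream of the TSS (chr15:63585391-63785391), which held 28 of the 104 peaks. Each peak is named by the distance of its centre from the Myc TSS, so that the +1.663 Mb peak lies 1.663 Mb downstream. Levels are fragments per 1000000 fragments in peaks (FPM), and ratios are log2(aged / young). Cells were the called cells with 3000 to 20000 in-peak fragments, 4887 young and 3405 aged, and 26 cell barcodes occurred in both libraries.

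Myc encodes a transcription factor of the basic helix-loop-helix leucine zipper family, which binds E-boxes together with its partner Max and promotes growth, ribosome production and division. In HSCs the level of Myc is known to affect the balance between self-renewal and differentiation. Myc is flanked downstream by Pvt1, a long noncoding RNA gene, and by a large gene-poor stretch. Far within this stretch lies a cluster of enhancer modules that is known to be needed for Myc expression in blood stem cells and progenitors and that is also used in leukemia.

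The sequences of 3 cluster peaks are shown because they mark the extremes among the 13 cluster peaks with at least 200 fragments in both libraries together: the peak with the most fragments, the peak with the highest aged-to-young ratio and the peak with the lowest. Each is the central 300 bp of the peak, 5' to 3' on the plus strand of GRCm38 (mm10). Capitals mark matches to the consensus letters of 19 blood transcription factor motifs on either strand.
+1.663 Mb, most fragments, chr15:63648176-63648475: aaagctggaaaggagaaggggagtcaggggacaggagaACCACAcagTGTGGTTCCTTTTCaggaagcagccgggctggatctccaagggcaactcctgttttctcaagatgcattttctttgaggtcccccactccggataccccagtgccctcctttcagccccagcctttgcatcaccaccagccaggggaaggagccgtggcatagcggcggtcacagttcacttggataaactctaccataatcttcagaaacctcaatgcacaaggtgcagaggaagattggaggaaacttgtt
+1.708 Mb, highest ratio, chr15:63693045-63693344: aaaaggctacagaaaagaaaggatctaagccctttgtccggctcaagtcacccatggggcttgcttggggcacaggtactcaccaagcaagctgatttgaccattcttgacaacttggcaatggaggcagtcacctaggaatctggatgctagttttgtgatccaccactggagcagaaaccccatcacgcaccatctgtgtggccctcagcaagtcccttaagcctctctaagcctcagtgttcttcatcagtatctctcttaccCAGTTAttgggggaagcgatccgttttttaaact
+1.626 Mb, lowest ratio, chr15:63611116-63611415: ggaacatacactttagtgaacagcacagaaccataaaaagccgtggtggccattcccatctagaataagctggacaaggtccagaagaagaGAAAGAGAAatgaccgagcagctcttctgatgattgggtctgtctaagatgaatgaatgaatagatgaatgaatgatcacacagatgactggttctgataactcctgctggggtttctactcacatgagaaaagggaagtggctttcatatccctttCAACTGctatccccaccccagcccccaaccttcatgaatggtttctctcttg
The strongest peak held 2 RUNX matches (TGTGGT or TGCGGT), on opposite strands, and an IRF match (GAAANNGAA) that shares a base with the second of them. The +1.708 Mb peak held 1 MYB match (CAACTG or CAACGG, or either with T in place of the first C). The +1.626 Mb peak held 1 MYB and 1 IRF match.

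The Myc promoter was among the more accessible promoters of both libraries, and its level differed little between them. Within 1 kb of the TSS there were 2287 young and 1665 aged fragments, or 66.0 FPM (63.3 to 68.8) in young HSCs and 63.7 FPM (60.7 to 66.8) in aged HSCs. These levels stood at percentile 95.3 of 21938 protein-coding promoters in young HSCs and at percentile 95.8 in aged HSCs, where the median promoters had 14.3 and 15.1 FPM. The ratio was -0.05 (-0.14 to 0.04), an interval that includes 0. Among the 14305 promoters with at least 200 fragments in both libraries together, the median ratio was -0.06 and that of Myc stood at percentile 51.6. Of those promoters 2.47% were higher in aged HSCs by 1.5-fold or more and 0.301% were lower by as much, and Myc was in neither group. The protein-coding promoters with levels nearest to those of Myc over the 2 libraries, by Euclidean distance of log2 FPM, were Dctn4, Dennd3, Tmem59, Nt5dc1 and Adk, at distances of 0.0045 to 0.012.

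Over the Myc promoter and gene lay 3 peaks, which together had 77.5 FPM in both libraries, a ratio of 0.00 (-0.08 to 0.08). The peak over the TSS (chr15:61984886-61985712) had 52.6 FPM in young and 50.7 FPM in aged HSCs. A peak 1.8 kb into the gene (chr15:61986962-61987494), at a Myc exon, had 17.9 and 19.2 FPM, a ratio of 0.10 (-0.07 to 0.27). Neither interval set the libraries apart.

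**Figure D1:**
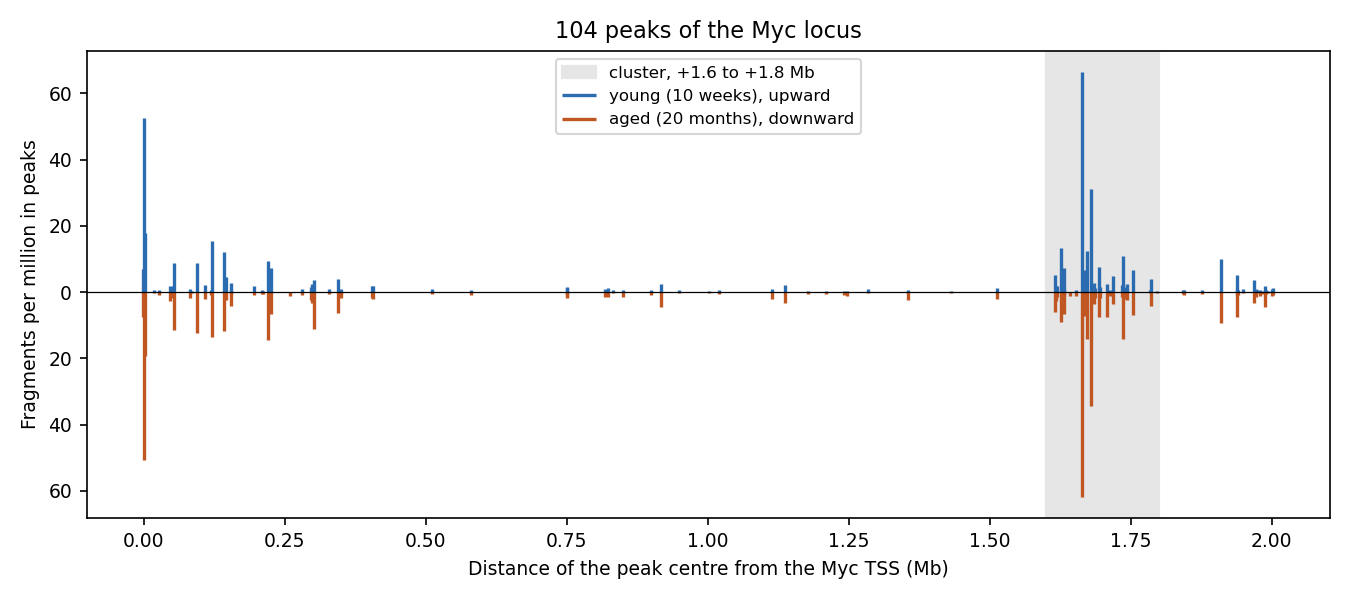
Level in FPM of each of the 104 peaks of the Myc locus, plotted against the distance of the peak from the Myc TSS in Mb, with young HSCs upward and aged HSCs downward. The tallest peak lies in the shaded cluster at +1.663 Mb, with 66.4 FPM in young and 61.7 FPM in aged HSCs, and the stretch between Pvt1 and the cluster is low.

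The enhancer cluster ranked high in accessibility among stretches without protein-coding promoters, although it holds the TSSs of the noncoding genes Gm41335, 4930449C09Rik, Gm41336 and Gm49019 and of 2 pseudogenes. Its 28 peaks summed to 6828 young and 5395 aged fragments, 197 FPM and 206 FPM, which were 46.4% and 43.8% of all peak fragments of the locus. Among 11759 windows of 200 kb that hold no protein-coding TSS, 80 had a higher sum over peaks away from promoters in young HSCs, 67 did so in aged HSCs, and the median windows had 2.17 and 3.63 FPM. These windows were laid at steps of 100 kb and overlap, and they may hold TSSs of noncoding genes too. The ratio of the cluster was 0.07 (0.01 to 0.12), a 1.05-fold difference, beside 0.00 over all peaks of the genome and -0.01 over those of chromosome 15. Its interval included 0 when scaled to all nuclear fragments, at 0.03 (-0.02 to 0.09), and with short fragments alone, at 0.03 (-0.03 to 0.09). The sums over the genome and chromosome 15 include peaks at protein-coding promoters, which the cluster lacks. Over the genome, peaks over 1 kb from a protein-coding TSS had medians of 6.11 FPM per kb in young and 6.66 FPM per kb in aged HSCs. The 28 cluster peaks had medians of 7.48 and 7.10 FPM per kb, a measure unlike the ratio of sums.

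Fragments in the cluster were concentrated in few peaks. The +1.663 Mb peak (chr15:63647894-63648758) alone held 33.7% of the cluster's fragments in young and 29.9% in aged HSCs. Together with the +1.680 Mb peak (chr15:63665168-63665912) it held 49.4% and 46.6%. The 10 strongest peaks held 84.8% and 81.5%, so the other 18 peaks added little to the sum. Of the 13 cluster peaks with at least 200 fragments in both libraries together, the 10 from +1.616 to +1.719 Mb lie in introns of Gm41335, a long noncoding RNA gene on the opposite strand to Myc. The +1.737 Mb peak lies at an exon of 4930449C09Rik and the +1.755 Mb peak at an exon of Gm41336, both long noncoding RNA genes. The centre of the +1.755 Mb peak is 67 bp from the TSS of Gm41336.

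Per kb of peak, the +1.663 Mb peak was more accessible than the peak over the Myc TSS in each library. It had 76.8 FPM per kb in young and 71.3 FPM per kb in aged HSCs, against 63.6 and 61.3 FPM per kb at the TSS. Among 147495 peaks over 1 kb from a protein-coding TSS, 144 were higher per kb in young HSCs and 153 in aged HSCs. The +1.680 Mb peak followed with 41.6 and 46.3 FPM per kb, below 2239 and 1309 such peaks. The median peak of this kind had 6.11 and 6.66 FPM per kb, close to the medians of 7.48 and 7.10 over the 28 cluster peaks.

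The 2 strongest cluster peaks also had a large share of short fragments, which come from DNA free of nucleosomes, and the next strongest did not. At +1.663 Mb 85.3% of young and 82.3% of aged fragments were shorter than the DNA wound around a nucleosome core. At +1.680 Mb the shares were 82.4% and 78.9%. The medians over 52166 peaks away from promoters with at least 200 fragments were 67.9% and 63.1%, so that +1.663 Mb stood at percentiles 98.7 and 98.0. The next cluster peaks by fragments, +1.673 and +1.737 Mb, had 57.6% and 55.0% in young HSCs, percentiles 16.5 and 11.5. The peak over the Myc TSS was near the middle, with 70.1% and 65.9%, percentiles 59.3 and 60.2 of the same peaks. The +1.708 Mb peak was low, with 48.8% and 39.5%, percentiles 4.66 and 2.65. By width, +1.673, +1.737 and +1.708 Mb stood at percentiles 97.8, 93.2 and 96.2 of the same peaks. The +1.663 and +1.680 Mb peaks stood at 87.6 and 77.9. Whether width has a part in the short shares was not tested. The share over all fragments of the cells was 59.8% in young and 55.0% in aged HSCs, so the libraries themselves differed in this measure.

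**Figure D2:**
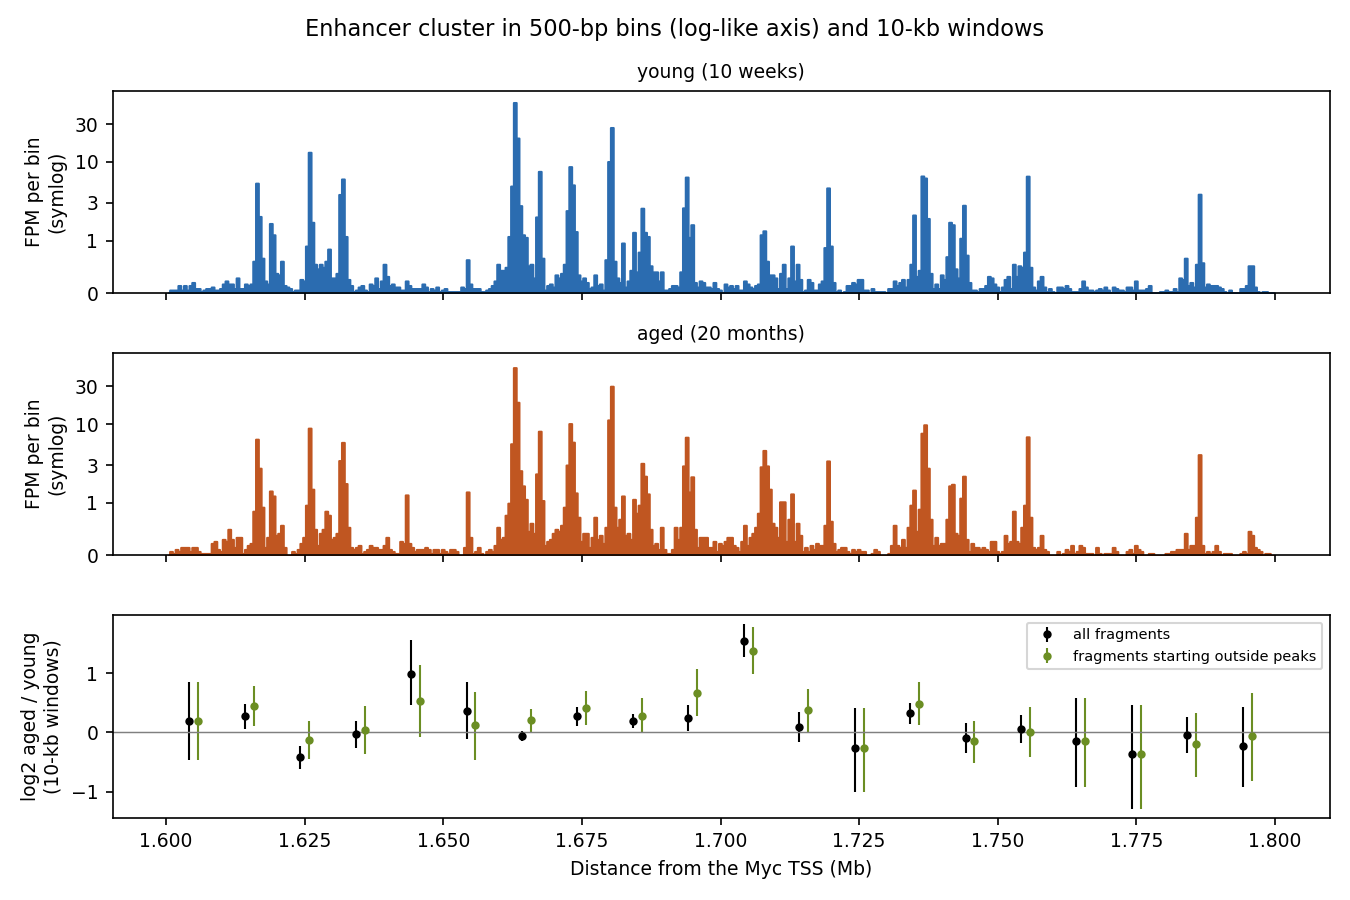
The cluster by distance from the Myc TSS in Mb: fragments (FPM) in 500-bp bins in young (top) and aged (middle) HSCs on a symmetric log axis, and log2(aged / young) in windows of 10 kb with 95% counting intervals (bottom) for all fragments and for fragments that start outside peaks. The window from +1.7 to +1.71 Mb stands at 1.54 for all fragments and at 1.37 outside peaks, and the strongest bins have like heights in both libraries.

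Between young and aged HSCs, the 2 strongest modules of the cluster differed little and in opposite directions. The +1.663 Mb peak had 2301 young and 1613 aged fragments, 66.4 and 61.7 FPM, a ratio of -0.11 (-0.20 to -0.01). The +1.680 Mb peak had 1074 and 902 fragments, 31.0 and 34.5 FPM, a ratio of 0.15 (0.02 to 0.28). The interval of +1.663 Mb included 0 under 6 of 12 alternatives and that of +1.680 Mb under 2 of 12, so the direction of either is not firm. Without the +1.663 Mb peak the ratio of the cluster was 0.15 (0.08 to 0.21), a leave-out chosen after its values were seen.

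Among cluster peaks with at least 200 fragments, the highest aged-to-young ratio was at a weak peak. The +1.708 Mb peak (chr15:63692642-63693748) had 82 fragments in young and 195 in aged HSCs, 2.37 FPM (1.88 to 2.94) and 7.46 FPM (6.45 to 8.58). Its ratio of 1.65 (1.28 to 2.05) was a 3.13-fold difference. It stood at percentile 99.5 of the 66726 peaks of the genome with at least 200 fragments, a limit that this peak reached through its aged count. Per kb it stood at percentile 6.23 of peaks away from promoters in young HSCs and at percentile 50.5 in aged HSCs. Fragments starting within 5 kb of it and outside all peaks were more frequent in aged HSCs too. They numbered 117 and 205, a ratio of 1.21 (0.88 to 1.56). Those that start there and end in the peak count in both, so this is not a separate measurement. The 10-kb window from +1.7 to +1.71 Mb had a ratio of 1.54 (1.27 to 1.82), percentile 99.5 of 74795 windows of the genome with at least 200 fragments. This window holds the peak and was the highest of the cluster. Its percentile thus recounts fragments of the peak and adds no support. Of the 13 windows of the cluster with at least 200 fragments, this was the only 1 that passed 1.5-fold higher. None passed 1.5-fold lower, beside 6.29% higher and 1.34% lower among the windows of the genome. Under 200 fragments, the +1.643 Mb peak had 4 young and 31 aged fragments, a ratio of 3.08 with a wide interval (1.86 to 5.32). This peak was called in the aged library alone, so its region was chosen where it is high and its ratio is a description.

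The lowest ratio of the cluster was at the +1.626 Mb peak (chr15:63610988-63611544), an otherwise strong module. It had 457 young and 237 aged fragments, 13.2 and 9.07 FPM, a ratio of -0.54 (-0.77 to -0.31), just inside the 1.5-fold limit. Fragments within 5 kb of it outside peaks had a ratio of -0.09 (-0.41 to 0.23), an interval that includes 0. A weaker peak at +1.719 Mb (chr15:63704483-63705092) went from 4.73 to 3.48 FPM, a ratio of -0.44 (-0.83 to -0.07).

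The remaining named peaks of the cluster lay between these. The +1.737 Mb peak (chr15:63721639-63722629) had 10.8 and 14.0 FPM, a ratio of 0.38 (0.17 to 0.59). The +1.673 Mb peak had 12.5 and 14.2 FPM, 0.18 (-0.03 to 0.38). The +1.616 Mb peak had 5.05 and 6.08 FPM, 0.27 (-0.05 to 0.59). At +1.632, +1.667, +1.694 and +1.755 Mb the levels were 6.58 to 7.48 FPM in young and 6.73 to 7.57 FPM in aged HSCs, with ratios of -0.10 to 0.10 and intervals that all include 0. Of the 13 cluster peaks with at least 200 fragments, 9 had a ratio above 0, and intervals excluded 0 in 3 above it and 3 below it. Over all 66726 such peaks 31413 had a ratio above 0, and intervals excluded 0 in 11617 above it and 11281 below it. At 1.5-fold, 1 of the 13, +1.708 Mb, was higher in aged HSCs and 0 were lower, beside 5.93% and 2.17% of the peaks of the genome.

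**Figure D3:**
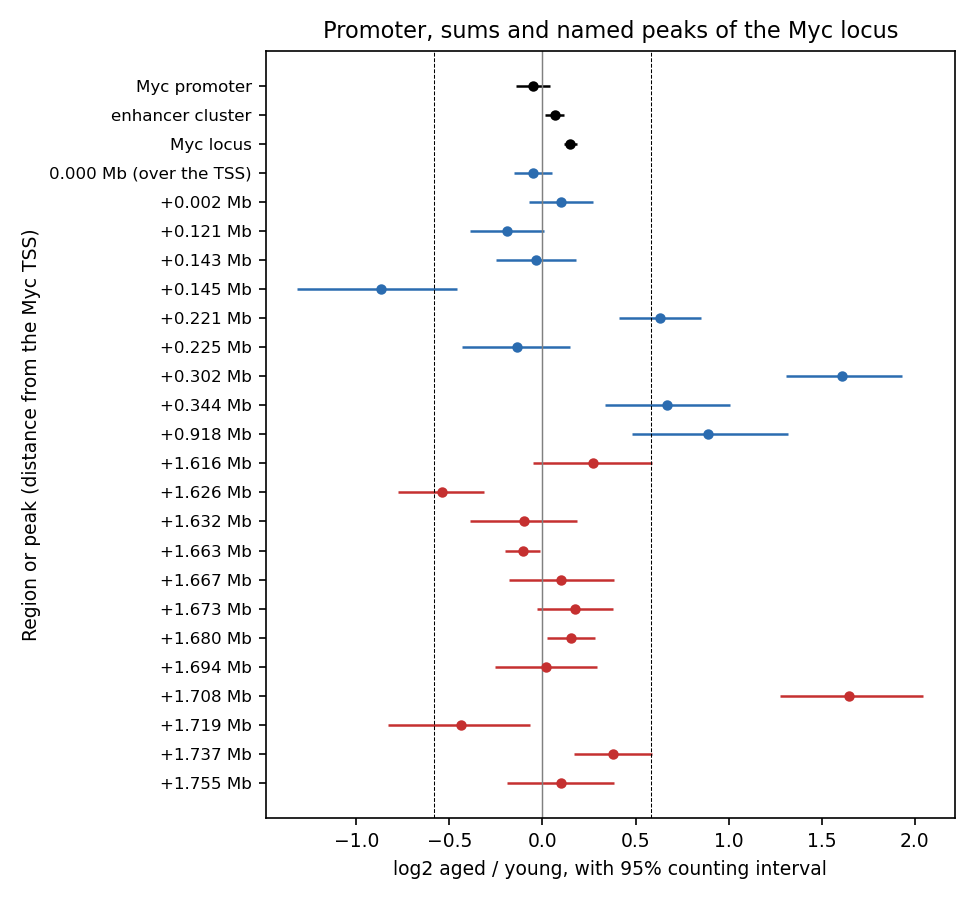
log2(aged / young), on the x axis, with 95% counting intervals for the Myc promoter, the sums over the cluster and the locus (black), and the named peaks inside (red) and outside (blue) the cluster, ordered by distance from the TSS; dashed lines mark 1.5-fold. The +0.302 and +1.708 Mb peaks stand at 1.61 and 1.65, and the promoter and both sums lie near 0.

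Over the whole locus the level was slightly higher in aged HSCs, more so outside the cluster. The 104 peaks summed to 14714 young and 12311 aged fragments, 425 and 471 FPM, a ratio of 0.15 (0.11 to 0.18). The 76 peaks outside the cluster had a ratio of 0.22 (0.17 to 0.26). Per kb of peak, the median over the 104 locus peaks was 3.95 FPM in young and 5.33 FPM in aged HSCs. That over the 28 cluster peaks was 7.48 and 7.10 FPM per kb. Peaks of the genome over 1 kb from a protein-coding TSS had medians of 6.11 and 6.66 FPM per kb. These medians are a measure unlike the ratios of sums. Of the 104 peaks, 30 had at least 200 fragments, and 5 of these were higher in aged HSCs by 1.5-fold or more and 1 was lower. The limit is on the total of both libraries, and the +0.918 and +1.708 Mb peaks reached it through the aged library and +0.145 Mb through the young one, so these counts are a description. Over the genome 5.93% of 66726 such peaks were higher and 2.17% lower. All 30 were called in both libraries, while 19 of the 104 peaks were called in young HSCs alone and 10 in aged HSCs alone, beside 24449 and 17466 of the 166179 peaks of the genome. The other 74 peaks had 16 to 194 fragments each and held 16.8% of the locus fragments in young and 19.3% in aged HSCs. The peaks nearest to the limit of 200 fragments were +1.989 Mb with 182 and +1.686 Mb with 194 below it, and +0.918 Mb with 202 and +0.154 Mb with 207 above it. Counted in 500-bp bins, 42 of 4013 bins had at least 200 fragments, of which 4 were higher and 0 lower by 1.5-fold, beside 4.77% and 1.54% of the bins of the genome. One of these 4 bins lay in the cluster, at +1.737 Mb, and 3 lay in Pvt1.

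Pvt1 held 25 peaks, of which 10 had at least 200 fragments, out of 30 such peaks in the locus. Of these 10, 3 were higher in aged HSCs by 1.5-fold or more and 1 was lower, which makes 4 of the 6 locus peaks past 1.5-fold. Over the genome 5.93% of such peaks were higher and 2.17% lower. Its peaks summed to 90.8 FPM in young and 112 FPM in aged HSCs, a ratio of 0.31 (0.23 to 0.38). The +0.302 Mb peak in a Pvt1 intron (chr15:62287204-62287752) went from 125 to 289 fragments, 3.61 to 11.1 FPM, a ratio of 1.61 (1.31 to 1.93), at percentile 99.5 of all peaks with 200 fragments. Its short share was 77.6% in young and 82.0% in aged HSCs, and fragments around it outside peaks had a ratio of 0.84 (0.53 to 1.16). Fragments that start around the peak and end in it count in both. The +0.221 and +0.344 Mb peaks, also intronic, had ratios of 0.63 (0.41 to 0.85) and 0.67 (0.34 to 1.01). The 1 lower peak lay in the same gene, at +0.145 Mb (chr15:62130313-62130727), with 161 and 66 fragments, 4.65 and 2.52 FPM, a ratio of -0.87 (-1.32 to -0.46).

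The other Pvt1 peaks with over 5 FPM in young HSCs lay on both sides of 0. The +0.121 Mb peak had 15.4 and 13.5 FPM, a ratio of -0.19 (-0.39 to 0.01), and the +0.143 Mb peak had 12.1 and 11.8 FPM, -0.03 (-0.25 to 0.18). The +0.225 Mb peak, a close neighbour of +0.221 Mb, had 7.13 and 6.46 FPM, -0.14 (-0.43 to 0.15). The +0.094 Mb peak had 8.78 and 12.4 FPM, 0.50 (0.27 to 0.73), and the +0.053 Mb peak, at a Pvt1 exon, had 8.75 and 11.6 FPM, 0.40 (0.17 to 0.64). Higher and lower peaks thus lay within the same gene. The promoter of Pvt1, within 1 kb of its TSS, had 11.0 and 13.3 FPM, a ratio of 0.28 (0.06 to 0.49). It contains the +0.053 Mb peak, so its level is not a separate measurement.

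Between Pvt1 and the cluster there were 26 peaks, with 23.2 and 33.2 FPM in sum, a ratio of 0.51 (0.37 to 0.65). Only the +0.918 Mb peak there had 200 fragments, with 2.42 and 4.51 FPM, a ratio of 0.89 (0.48 to 1.32). Beyond the cluster 18 peaks had 30.8 and 35.9 FPM, a ratio of 0.22 (0.09 to 0.35). The 61 peaks of the 2 Mb before the locus had a ratio of 0.33 (0.28 to 0.38), so sums above 0 were also found outside the stretch downstream of Myc.

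Fragments outside peaks were more frequent in aged HSCs as well. Over the 1967 kb of the locus outside peaks there were 0.172 FPM per kb in young and 0.194 in aged HSCs. The ratio was 0.17 (0.13 to 0.21). For fragments of the genome with no end in a peak the ratio was 0.10. The locus value also counts fragments that start outside peaks and end in one, so these are unlike measures. Within the cluster this background was 0.379 and 0.455 FPM per kb, a ratio of 0.26 (0.18 to 0.34). The share of fragments in peaks was 69.2% in young and 67.6% in aged HSCs. Whether this difference in background has a part in the ratios above 0 of the locus was not tested.

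**Figure D4:**
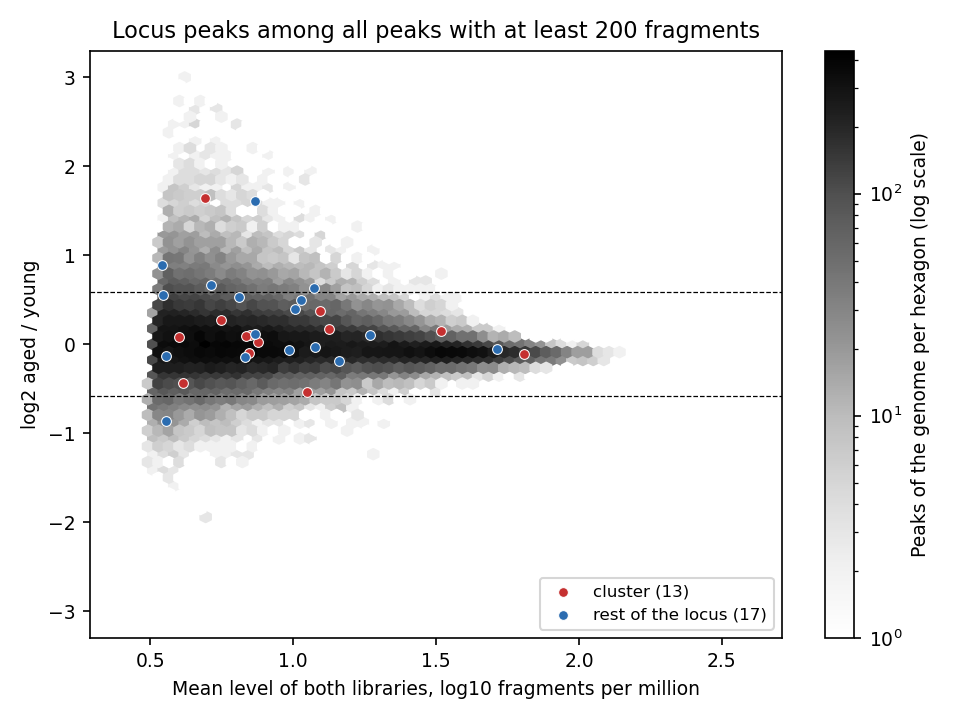
log2(aged / young) against the mean level of both libraries (log10 of FPM) for the 66726 peaks of the genome with at least 200 fragments (grey, shaded by number on a log scale), with the 13 cluster peaks (red) and 17 other locus peaks (blue) on top; dashed lines mark 1.5-fold. The strongest peaks of the locus lie near 0 with the bulk of the genome, and those past 1.5-fold, 5 above and 1 below, have at most 14.3 FPM in either library.

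The locus holds 31 annotated genes, of which 6 are protein-coding: Myc, the gasdermin genes Gsdmc, Gsdmc2, Gsdmc3 and Gsdmc4, and Fam49b, which overlaps the end of the locus and has its TSS beyond it. The promoters of Gsdmc and Gsdmc4 had 9 and 8 fragments in young HSCs and 3 and 4 in aged HSCs. Those of Gsdmc2 and Gsdmc3 had none in either library, which allows up to 3 fragments each. The Fam49b promoter had 30.3 and 26.4 FPM, a ratio of -0.20 (-0.34 to -0.06). Of the 6, Myc and Fam49b thus had promoters with 200 or more fragments. The promoter of Gm41335, whose intron holds most of the cluster, had 22 and 17 fragments, and that of Gm41336 had 7.33 and 7.76 FPM. The Gm41336 promoter contains the +1.755 Mb peak of the cluster, so its level is not a separate measurement.

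At the level of single cells, each cell was thinned to 3000 in-peak fragments, which makes depth in peaks equal but not total depth, and left 4789 young and 3271 aged cells and left out 98 and 134. A fragment at the Myc promoter was found in 17.5% of young cells (16.4 to 18.6) and 17.5% of aged cells (16.3 to 18.9). Cells with a fragment in the cluster made up 43.9% (42.5 to 45.3) and 46.3% (44.6 to 48.1). At full depth these shares were 72.3% and 75.3%, since more fragments per cell raise them. For +1.663 Mb the thinned shares were 17.9% and 16.8%.

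For the 2 highest and 2 lowest ratios of the locus among peaks with 200 fragments, the shares of cells recount the fragments behind the ratios, so they describe how these are spread over cells and add no support for a difference. For +1.708 Mb 0.731% of young cells (0.510 to 1.01) and 2.08% of aged cells (1.62 to 2.63) had one. For +0.302 Mb the shares were 1.06% (0.794 to 1.40) and 3.18% (2.61 to 3.84), and for +1.626 Mb 3.93% (3.39 to 4.51) and 2.45% (1.94 to 3.03). For +0.145 Mb they were 1.25% (0.957 to 1.61) and 0.642% (0.398 to 0.980), and these intervals overlap. Before thinning, the 195 aged fragments at +1.708 Mb came from 184 cells and no cell had more than 2, and the 82 young ones came from 80 cells. The fragments were thus spread over many cells. Shares of cells with a fragment depend on depth and are not shares of cells in which a module is open.

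The number of cluster fragments per thinned cell varied about as much as its mean, with a variance over mean of 1.03 in young and 1.004 in aged HSCs. Cells with a cluster fragment had a promoter fragment in 17.3% (15.7 to 18.99) of young and 18.4% (16.5 to 20.4) of aged cells. Cells without one had it in 17.6% (16.2 to 19.1) and 16.8% (15.1 to 18.6). Both were found in 364 young and 279 aged cells. At 3000 fragments a cell, a promoter fragment was not detectably more or less frequent in cells with a cluster fragment than in those without.

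**Figure D5:**
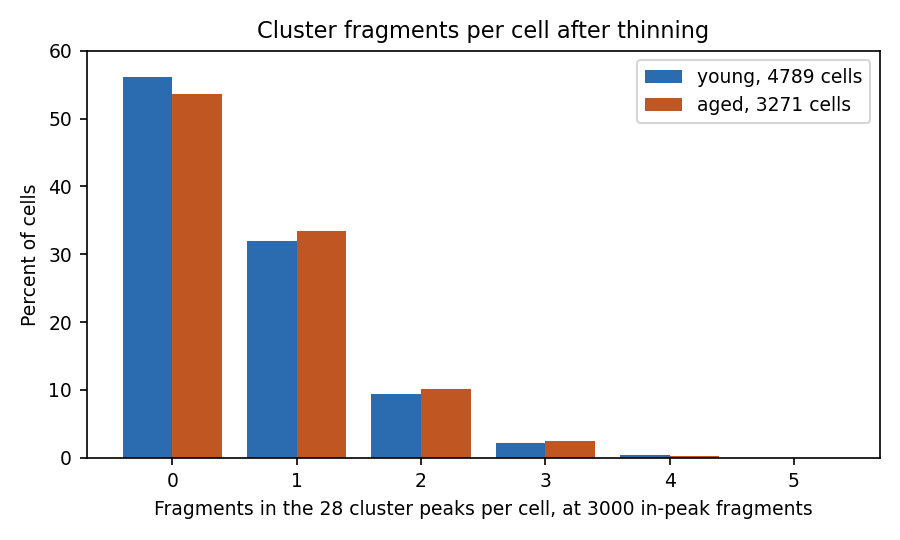
Percent of cells (y axis, from 0) by number of fragments in the 28 cluster peaks after thinning to 3000 in-peak fragments per cell, in 4789 young and 3271 aged cells. No fragment was found in 56.1% of young and 53.7% of aged cells, and 1 fragment in 32.0% and 33.5%.

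Consensus letters of 19 motifs were searched on both strands of the central 300 bp of each peak. Among the factors of blood enhancers, RUNX letters were in 10 of 28 cluster peaks (35.7%) against 32.0% of all 166179 peaks, and GATA letters (AGATAA) in 2 (7.14%) against 13.9%. MYB letters were in 6 (21.4%) against 30.2%, ETS (AGGAAGT) in 5 (17.9%) against 20.2%, and PU.1 (GAGGAAGT, which holds the ETS letters) in 2 (7.14%) against 7.85%. MEIS letters (TGACAG), of a homeobox factor that works with Hox proteins, were in 9 (32.1%) against 20.7%. With 28 peaks, a difference of a few peaks is all that separates these shares.

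Letters of factors that answer to signals or act in many cell types were found in a few peaks each. AP-1 (TGANTCA) and IRF were in 4 peaks (14.3%) each, against 12.2% and 12.04% of all peaks. CTCF, the insulator protein (AGGGGGC or AGGTGGC), was also in 4, against 15.4%, and E2A (CAGCTG or CAGGTG) in 6 (21.4%) against 33.9%. TCF/LEF (CTTTGAA or CTTTGAT) was in 3 (10.7%) against 9.89%, and C/EBP (TTGCNNAA) and FOX (TGTTTAC or TGTTTGC) in 2 (7.14%) each, against 12.2% and 10.1%. The E-box CACGTG, which Myc itself binds, KLF/SP (GGGCGG) and NF-kB (GGGNNTTCC) were in 1 (3.57%) each, against 5.25%, 14.4% and 5.01%. STAT (TTCCNGGAA), CNC (GCTGANTCA, which holds the AP-1 letters) and HOXA9 (TGATTTAT) letters were in 0 cluster peaks, against 1.21%, 3.64% and 1.48%. The second strongest peak, +1.680 Mb, had RUNX and AP-1 letters, and the +0.302 Mb peak of Pvt1 had RUNX letters. The central 300 bp of +1.680 Mb were 67.7% repeat-masked, against medians of 11.2% over cluster peaks and 9.33% over all peaks. Whether its letters lie in the repeat was not tested. The median GC content of the cluster peaks was 47.8%, against 48.7% over all peaks.

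The promoters of the Myc network had ratios within 1.5-fold wherever 200 fragments were reached, with list medians from below to above that of all promoters. Of 13 genes of the Myc family and its partners, all had 200 fragments and 0 passed 1.5-fold in either direction. Over all 14305 promoters 2.47% were higher by as much and 0.301% lower, so 0 in a list this short is near those shares. The median ratio of the list was -0.07, beside -0.06 over all these promoters. The promoter of Max, the obligate partner, had 64.2 and 59.5 FPM, a ratio of -0.11 (-0.20 to -0.01). Those of the other Myc genes, Mycn and Mycl, had ratios of 0.04 (-0.05 to 0.14) and 0.01 (-0.16 to 0.18). Of the 6 repressors that compete for Max, Mxd1, Mxi1, Mxd3 and Mga had intervals below 0, with ratios of -0.23 (Mxi1) to -0.17 (Mga), and over all 14305 promoters 3583 had intervals below 0 and 1674 above it. The other repressors, Mnt and Mxd4, stood at -0.05 (-0.12 to 0.02) and -0.07 (-0.15 to 0.02).

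Of 10 genes for the turnover of Myc protein and its cofactors, 9 had 200 fragments and 0 passed 1.5-fold, with a median of -0.15 and intervals below 0 in 6 of the 9. Fbxw7, the ubiquitin ligase subunit that marks Myc for degradation, had 62.1 and 60.8 FPM, a ratio of -0.03 (-0.13 to 0.06). Trrap, a coactivator that Myc recruits, had the lowest at -0.19 (-0.32 to -0.07). Of 17 known Myc target genes, all had 200 fragments and 0 passed, beside 2.47% higher and 0.301% lower over all promoters. Their median was -0.09, with intervals above 0 in 1 and below 0 in 7, beside 1674 and 3583 of 14305 promoters. Ldha, which makes lactate, was highest at 0.57 (0.21 to 0.92) from 127 and 142 fragments. Its level at the annotated TSS, 3.67 and 5.43 FPM, was the lowest of the list in each library. Hspd1, a mitochondrial chaperone, had the lowest ratio at -0.21 (-0.30 to -0.12).

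Of 14 genes of factors that act at blood enhancers, all had 200 fragments and 0 passed, with a median of 0.01. The promoters of Lmo2, Fli1 and Gata2, members of a set of stem cell regulators, had ratios of 0.49 (0.18 to 0.80), 0.23 (0.05 to 0.40) and 0.21 (0.04 to 0.37). That of Lmo2 came from 167 and 177 fragments, 4.82 and 6.77 FPM, the lowest level of the list. Of the same set, Erg stood at 0.21 (-0.01 to 0.42), Tal1 at 0.01 (-0.09 to 0.11) and Lyl1 at -0.17 (-0.25 to -0.08). Intervals lay above 0 in Lmo2, Fli1 and Gata2 and below 0 in 4, among them Lyl1 and Myb, beside 1674 above and 3583 below of the 14305 promoters, of which 2.47% and 0.301% passed 1.5-fold. Myb was lowest at -0.18 (-0.32 to -0.05), and Runx1 stood at -0.10 (-0.23 to 0.02). In these 4 lists no promoter with 200 fragments reached 1.5-fold.

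The label was checked against promoters of marker genes. Of 8 HSC markers 7 had 200 fragments, with a median ratio of -0.02 and intervals above 0 in 3 and below 0 in 0 of them, beside 1674 and 3583 of the 14305 promoters. The 3 were Slamf1 at 0.43 (0.18 to 0.69), Hoxb5 at 0.28 (0.13 to 0.43) and Procr at 0.21 (0.02 to 0.39). The promoters of all 8 ranged from 0.520 to 51.4 FPM in young and from 0.536 to 50.6 FPM in aged HSCs. Mecom was the lowest, with 18 and 14 fragments at its annotated TSS. The 3 T cell markers summed to 3.46 and 2.18 FPM, the 3 B cell markers to 7.51 and 7.23, the 4 granulocyte-monocyte markers to 5.86 and 5.85 and the 3 erythroid markers to 20.6 and 18.8. Sums of the 3 stroma markers were 31.8 and 33.2 FPM, and those of the 3 megakaryocyte markers, whose promoters are known to be open in HSCs too, were 101 and 90.1 FPM. Members of a list could differ more than its sum, with Elane at 0.77 (0.25 to 1.31), Mpo at -0.65 (-1.20 to -0.15) and Itga2b at -0.35 (-0.50 to -0.21). Of these 19 promoters 8 had 200 fragments, and 0 of the 8 passed 1.5-fold, beside 2.47% higher and 0.301% lower over all promoters. The part of other cells in the ratios of the locus was not tested.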

How the data were processed

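Single-cell ATAC-seq of 2 libraries, grouped by the labelled age, was analysed. The authors processed each library with Cell Ranger ATAC, which aligns reads to mm10, drops duplicates and calls cells and peaks. Signac is also named in the submitters' processing notes. The release of Cell Ranger ATAC named in the methods does not match the layout of the barcode table, so its version is not given here. The deposited files hold counts: unique fragments with their barcode, and read pairs or fragments per barcode, with no normalization. For all 239185 young and 217516 aged barcodes, the number of listed fragments equalled the count in the authors' table. The libraries held 73711513 and 63744997 read pairs, and 53786133 and 48333115 unique fragments. Of 5028 young and 3694 aged called cells, 129 and 171 had fewer than 3000 and 12 and 118 more than 20000 in-peak fragments by the authors' table, and were left out. Median fragments per cell were 9890 and 11020.

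Peaks were called anew on cut sites of these cells (Poisson test of the cuts in 151 bp, with the genome mean or that of the surrounding 10000 bp, whichever is higher, as the expectation, q under 0.001, merged across 50 bp, at least 100 bp wide) and both sets were combined. Each fragment with an end in a region was counted there once, so a fragment with ends in 2 peaks counts in both. Values were scaled to 34642007 young and 26143465 aged fragments in peaks. Ratios have a pseudocount of 1 fragment. Their intervals come from the exact binomial share of the 2 counts, those of levels are exact Poisson and those of shares of cells exact binomial (Clopper-Pearson). PCR copies were removed by position, without molecular identifiers. Doublets (216 young and 229 aged cells marked from loci covered by 3 or more fragments) were kept. Windows and fragments outside peaks were counted by the first base of each fragment. A fragment that starts outside a peak and ends in it thus counts both outside and in the peak. The ratio over the genome outside peaks instead holds fragments with no end in a peak. Promoters and annotation are from GENCODE M21, with the gene taken at the centre of the peak and called exon where the peak overlaps one, and sequence from GRCm38.p6. The TSS of a gene was its outermost annotated start, so a promoter in use within the gene may be missed. Python 3.11.15 with numpy, scipy 1.17.1 and numba was used. Scripts were tested on simulated data.

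The named peaks were the 10 with the most fragments in the cluster, the 5 with the most elsewhere in the locus, and the 5 highest and 5 lowest ratios among peaks with at least 200 fragments. Genes were those annotated in the locus, the lists, and the 5 promoters nearest to Myc in level. The members, lists and motifs were chosen with earlier results of these data known.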

Additional observations from a re-analysis of the deposited data

Results flagged for a closer look

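Signal of the locus was also found in barcodes that the authors did not call as cells, which enter no comparison above. Over the 195833 such barcodes of the young library and 184822 of the aged library that had at least 1 unique fragment, the Myc promoter had 56.6 FPM (45.4 to 69.7) and 69.6 FPM (57.1 to 84.1), from 88 and 108 fragments. The enhancer cluster had 186 FPM (166 to 209) and 206 FPM (184 to 230), from 290 and 319 fragments. Each count is above the 3 fragments that a count of 0 allows. In the called cells the promoter had 66.0 and 63.7 FPM and the cluster 197 and 206 FPM, and each of these 4 values lies within the interval of the barcodes outside the cells. Of the barcodes not called as cells, 123 young and 131 aged had 3000 to 20000 in-peak fragments.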

How the results depend on the processing

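The ratio of the Myc promoter stayed within its counting interval under all 14 alternatives, from -0.085 to 0.006, and that interval includes 0. The ratio of the cluster stayed above 0 under 15 alternatives, from 0.031 to 0.147, and left its interval without its strongest peak, at 0.147, an alternative chosen after the data were seen. Its interval included 0 when scaled to all nuclear fragments (0.033) and with short fragments alone (0.031). The locus sum ranged from 0.116 to 0.217, and left its interval when scaled to promoter fragments (0.200) and, chosen after the data were seen, without the cluster (0.217). The 5 higher peaks became 2 in cells of 5000 to 10000 in-peak fragments, 3 with short fragments, 1 after thinning, 17 at a minimum of 50 fragments and 11 at 1.2-fold. The 1 lower peak became 0 in cells of 5000 to 10000 in-peak fragments, 2 at 50 fragments, 3 at 1.2-fold and 0 in 500-bp bins. After thinning the 1 lower peak was another, +1.626 Mb at -0.675, since +0.145 Mb then had under 200 fragments. Fewer cells, short fragments and thinning leave fewer peaks with 200 fragments. Of 264 ratios of 22 named peaks, 261 stayed within their intervals and 0 with an interval off 0 changed sign. The +1.708 Mb peak ranged from 1.424 to 1.696, +0.302 Mb from 1.576 to 1.776 and +1.626 Mb from -0.675 to -0.429. The interval of +1.663 Mb included 0 with the median ratio set to 0 (-0.088), scaled to promoter fragments (-0.055), in cells of 5000 to 10000 in-peak fragments (-0.054), without marked doublets (-0.096), with short fragments (-0.068) and after thinning (-0.095), and that of +1.680 Mb scaled to nuclear fragments (0.121) and in cells of 5000 to 10000 (0.078). The exceptions among the named peaks were +1.694 Mb, at -0.272 with short fragments and -0.424 after thinning, and +0.121 Mb, at -0.401 after thinning, and their cause was not tested. No paired analysis was possible because there is 1 library per age and no test. No replicate could be left out for the same reason.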
